A study of Mus musculus with 9 samples.

Results

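The genes described here encode intracellular protease inhibitors: the serpins Serpinb1a, Serpinb6a, Serpinb6b, Serpinb9 and Serpina3g, and the Ctla2 proteins Ctla2a and Ctla2b. They were chosen by name, and each was read from the probe set (a group of probes for one transcript) with the highest mean over all 9 arrays, among probe sets annotated to a single gene. Of the 7 genes, 6 had such a probe set, out of 17097 genes in all, and they had 9 probe sets between them. Serpina3g, whose product is known to inhibit lysosomal cysteine cathepsins, had no single-gene probe set here and was not analysed. RNA was measured on 1 array per sample in CD8+ T cells specific for OVA (ovalbumin, a model antigen), sorted from the spleen of C57BL/6 mice at day 9 after infection with Listeria monocytogenes. The 4 WT samples came from mice with Tsc1-fl/fl alleles and no cre. The 5 Tsc1-/- samples came from mice with the same floxed alleles and Granzyme B-cre, a cre that is made where the granzyme B promoter is active. Every Tsc1-/- mouse and no WT mouse carried cre, so loss of Tsc1 and presence of cre cannot be told apart. The labels do not say whether each sample came from a separate animal, so a p-value here reflects only how the samples scatter, which may be technical, and precision is limited by having 9 arrays.

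Values are log2 expression, and each difference is Tsc1-/- minus WT on that scale. The T cell genes Cd3e (11.77 to 11.87) and Cd8a (12.00 to 12.16) were bright and level over the 9 arrays. Tsc1, the targeted gene, averaged 7.66 ± 0.09 (SD, n = 4) in WT against 7.40 ± 0.09 (SD, n = 5), with every Tsc1-/- array below every WT array and an adjusted p of 0.114 (limma). Its other probe sets differed by -0.32 and -0.01, both with overlapping groups. Whether any of these probes lie in the deleted part of the gene is not given, which limits what they say about the labels. At an adjusted p under 0.05, limma called 1.28% of all genes, 166 of them up and 53 down with loss of Tsc1. At an unadjusted p under 0.05 there were 2936 of the 17097 genes. Higher genes made up 75.8% of the calls, against 55.8% after quantile normalization and 84.3% after median centring. The genes were listed with the calls of Serpinb1a, Ctla2a and Ctla2b already known. These calls are repeated as the base for the values by array and lend the list no support.

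Serpins are protein inhibitors that present a loop as bait: the protease cuts the loop, and the serpin then changes shape and traps it in a covalent complex. Clade B serpins lack a classical secretion signal and act mainly in the cytosol and nucleus, where they can protect a cell from its own proteases. Cytotoxic lymphocytes keep granzymes and cathepsins in their granules, and leakage of these into the cytosol can kill the cell that carries them. Ctla2 proteins resemble the propeptide of cysteine cathepsins, the part that keeps the enzyme inactive until it is removed, and Ctla2a is known to inhibit cathepsin L.

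In Tsc1-/- cells, Serpinb1a rose 2.59-fold and the Ctla2 genes fell to 66.3% (Ctla2a) and 63.7% (Ctla2b) of the WT level, while Serpinb6a, Serpinb6b and Serpinb9 did not pass the test. Thus 1 of 6 measured members was higher, against 0.971% of all genes, and 2 of 6 were lower, against 0.31% of all genes. The median difference of the 6 was 0.04, and that of all genes was -0.01. The listing was not blind to these calls, so nothing is read from the counts. In a sorted population, fewer cells that express a gene and less of its RNA per cell cannot be told apart.

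**Figure D1:**
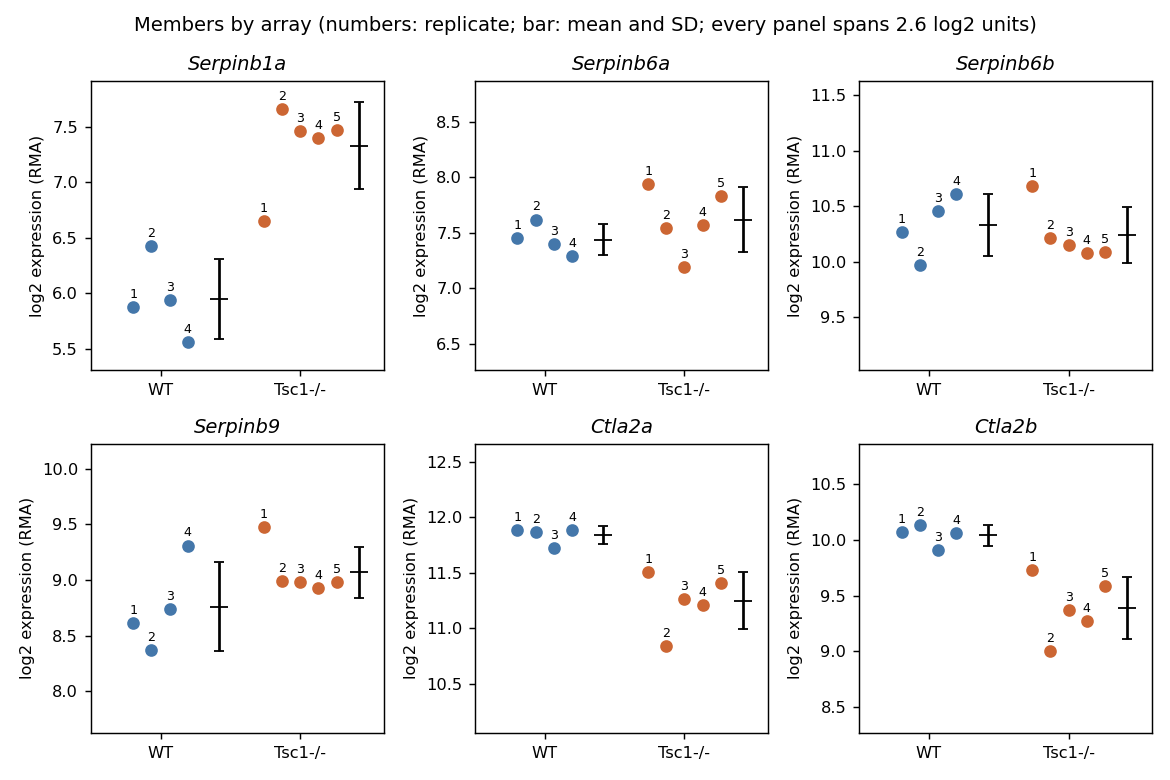
Log2 expression (vertical axis) of the 6 measured members on each array, WT in blue and Tsc1-/- in orange, with the replicate number beside each point and the mean and SD as a bar; the vertical axis spans the same range of log2 units in every panel. The groups do not overlap for Serpinb1a, Ctla2a and Ctla2b and overlap for the other members, and Tsc1-/- replicate 1 is the lowest of its group for Serpinb1a (6.65) and the highest for Serpinb6b (10.68) and Serpinb9 (9.48).

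Serpinb1a inhibits neutrophil elastase, cathepsin G and proteinase 3, serine proteases of neutrophil granules. It read 5.88, 6.43, 5.94 and 5.56 in WT replicates 1 to 4, and 6.65, 7.66, 7.46, 7.40 and 7.47 in Tsc1-/- replicates 1 to 5. Every Tsc1-/- array was above every WT array, with a gap of 0.22 between WT replicate 2 and Tsc1-/- replicate 1, and 4 of the 5 Tsc1-/- arrays lay close together. Of all genes, 7.96% had groups without overlap, and 5.08% had them with the higher values in Tsc1-/-. The means were 5.95 ± 0.36 (SD, n = 4) and 7.33 ± 0.39 (SD, n = 5), a difference of 1.37 (SE 0.20, 95% interval 0.94 to 1.81, adjusted p = 0.0219, limma). Within groups it was among the more variable genes: its SD exceeded that of 97.2% of genes in WT and 98.1% in Tsc1-/-. Its WT mean was below the level of the median gene (6.34), which limits what the size of the rise shows.

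The second Serpinb1a probe set, whose identifier marks probes that may also bind related transcripts, did not separate the groups. It read 4.66, 5.34, 4.62 and 4.69 in WT and 4.38, 6.07, 5.93, 6.11 and 6.48 in Tsc1-/-. Tsc1-/- replicate 1 was the lowest of all 9 arrays by this probe set, whereas the other 4 Tsc1-/- arrays were above every WT array. The difference was 0.97 (SE 0.34, adjusted p over all probe sets = 0.21, limma), and with the mean of both probe sets the gene differed by 1.17 (adjusted p = 0.0521, limma). The call also ended without WT replicate 1 (1.35, adjusted p = 0.0941), without Tsc1-/- replicate 2 (1.29, adjusted p = 0.0518) and without Tsc1-/- replicate 5 (1.34, adjusted p = 0.0662).

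**Figure D2:**
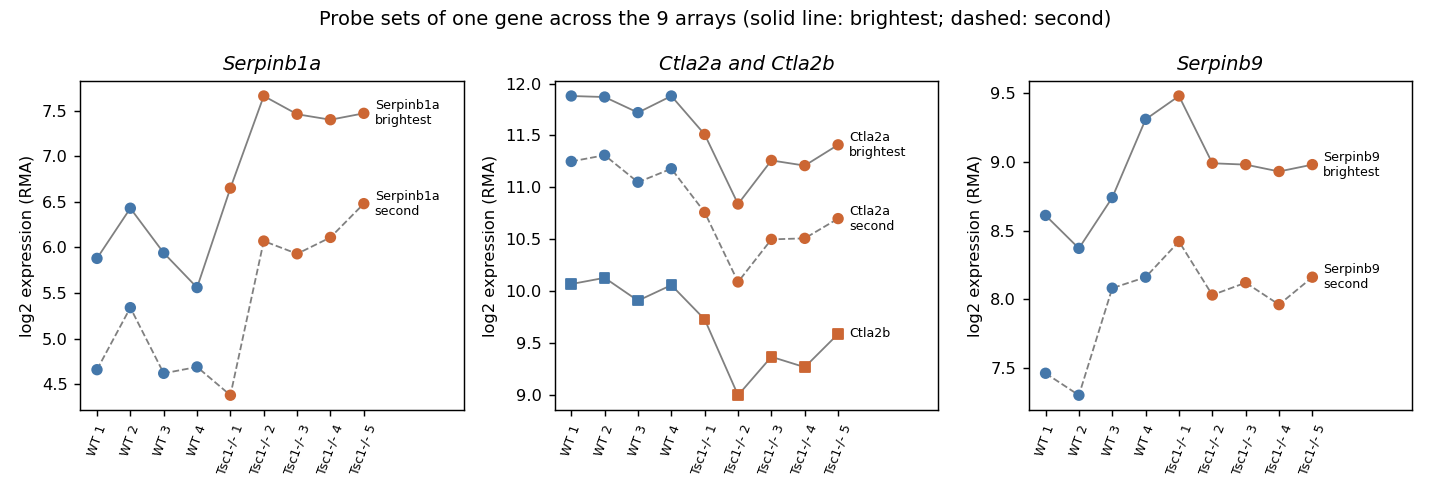
Log2 expression (vertical axis) by array (horizontal axis; WT blue, Tsc1-/- orange) for every probe set of Serpinb1a, the Ctla2 genes and Serpinb9, with solid lines for the brightest probe set of a gene and dashed lines for the second. The lines run alike for the Ctla2 genes, while the second Serpinb1a probe set falls to 4.38 in Tsc1-/- replicate 1, below all WT arrays.

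Serpinb9 is the clade B serpin known to inhibit granzyme B and to protect cytotoxic lymphocytes from it. It read 8.61, 8.37, 8.74 and 9.31 in WT replicates 1 to 4 and 9.48, 8.99, 8.98, 8.93 and 8.98 in Tsc1-/- replicates 1 to 5. The groups overlapped through WT replicate 4, which was above 4 of the 5 Tsc1-/- arrays. The means were 8.76 ± 0.40 (SD, n = 4) and 9.07 ± 0.23 (SD, n = 5), a difference of 0.31 (95% interval -0.06 to 0.68, adjusted p = 0.373, limma). Its second probe set gave 0.39 (95% interval 0.01 to 0.77, adjusted p over all probe sets = 0.32, limma). Without WT replicate 4 the difference was 0.50 (adjusted p = 0.0827). It was 0.40 (adjusted p = 0.0675) without WT replicate 4 and Tsc1-/- replicate 1 together.

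Gzmb, which encodes granzyme B itself, rose by 0.58 (SE 0.11, adjusted p = 0.0339, limma), with means of 11.54 ± 0.17 (SD, n = 4) for WT and 12.12 ± 0.16 (SD, n = 5) for Tsc1-/-. The genotype difference of Serpinb9 was lower than that of Gzmb by 0.26 (value -0.26), with a two-sided exact permutation p of 0.0238 over all splits of the 9 arrays and 0.0714 after adjustment over the 3 gene pairs compared. The smallest p these splits can give is 0.00794. A difference in the change of inhibitor and target was therefore not shown. WT replicate 4 and Tsc1-/- replicate 1 were the highest of their groups for both genes, at 11.78 and 12.40 for Gzmb.

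The Serpinb6 genes encode further cytosolic inhibitors of serine proteases, and human SERPINB6 is known to inhibit cathepsin G. Serpinb6b was bright, at 10.27, 9.97, 10.46 and 10.61 in WT and 10.68, 10.21, 10.15, 10.08 and 10.09 in Tsc1-/-. Apart from Tsc1-/- replicate 1, the Tsc1-/- arrays lay within the WT range. The difference was -0.09 (95% interval -0.41 to 0.23, adjusted p = 0.804, limma), a span that leaves room for a change in either direction. Serpinb6a read 7.45, 7.62, 7.40 and 7.29 in WT and 7.94, 7.54, 7.19, 7.57 and 7.83 in Tsc1-/-, with the WT values inside the Tsc1-/- range. It differed by 0.18 (95% interval -0.12 to 0.47, adjusted p = 0.547, limma). Between the genotype differences of Serpinb6a and Serpinb6b the gap was 0.27 (two-sided exact permutation, p = 0.27, and 0.27 after adjustment over the 3 pairs).

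Ctla2a read 11.88, 11.87, 11.72 and 11.88 in WT replicates 1 to 4 and 11.51, 10.84, 11.26, 11.21 and 11.41 in Tsc1-/- replicates 1 to 5. The WT arrays were tightly grouped, and all Tsc1-/- arrays lay below them over a wider range (0.67, against 0.16 in WT). The difference was -0.59 (SE 0.12, 95% interval -0.85 to -0.33, adjusted p = 0.039, limma), with means of 11.84 ± 0.08 (SD, n = 4) for WT and 11.25 ± 0.26 (SD, n = 5) for Tsc1-/-. Its second probe set, which may also bind related transcripts, gave -0.68 (SE 0.13, adjusted p over all probe sets = 0.0522, limma), again with no overlap. When probe sets were tested one by one, 0.153% of all probe sets were higher and 0.0866% lower, and no Ctla2 probe set passed (adjusted p = 0.0589 for the first of Ctla2a and 0.0569 for that of Ctla2b).

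Ctla2b read 10.07, 10.13, 9.91 and 10.06 in WT replicates 1 to 4 and 9.73, 9.00, 9.37, 9.27 and 9.59 in Tsc1-/- replicates 1 to 5. The order of the Tsc1-/- arrays was that of Ctla2a, with replicate 1 the highest and replicate 2 the lowest. The means were 10.04 ± 0.09 (SD, n = 4) and 9.39 ± 0.28 (SD, n = 5), a difference of -0.65 (SE 0.13, 95% interval -0.93 to -0.37, adjusted p = 0.0375, limma). Groups without overlap and with the lower values in Tsc1-/- were found for 2.88% of all genes. The differences of Ctla2a and Ctla2b were 0.06 apart (two-sided exact permutation, p = 0.183, and 0.27 after adjustment over the 3 pairs), which does not show that they changed alike. The transcripts that each probe set matches were not analysed here, so signal of one Ctla2 gene can include RNA of the other. Both calls ended without any single array other than WT replicate 4 or Tsc1-/- replicate 1, at adjusted p of 0.057 to 0.132 for Ctla2a and 0.0554 to 0.129 for Ctla2b, with differences of -0.63 to -0.49 and -0.70 to -0.55.

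The Ctla2 genes lie near each other on chromosome 13 and share much of the sequence before their starts, which is shown here. Whether this sequence has a part in their lower values was not tested. Each line gives the 250 bases before the start, 5′ to 3′, from RefSeq on GRCm38.p6, for Ctla2a chr13:60936626-60936875 on the minus strand and for Ctla2b chr13:60897448-60897697 on the minus strand. Capitals mark the letters TGACTCA, known as an AP-1 motif, and TGACGT, the core of a cyclic AMP response element (CRE).
Ctla2a: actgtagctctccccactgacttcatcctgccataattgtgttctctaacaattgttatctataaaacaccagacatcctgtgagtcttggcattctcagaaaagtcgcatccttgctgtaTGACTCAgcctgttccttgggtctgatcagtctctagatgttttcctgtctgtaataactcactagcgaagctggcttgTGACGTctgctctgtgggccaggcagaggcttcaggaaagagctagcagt
Ctla2b: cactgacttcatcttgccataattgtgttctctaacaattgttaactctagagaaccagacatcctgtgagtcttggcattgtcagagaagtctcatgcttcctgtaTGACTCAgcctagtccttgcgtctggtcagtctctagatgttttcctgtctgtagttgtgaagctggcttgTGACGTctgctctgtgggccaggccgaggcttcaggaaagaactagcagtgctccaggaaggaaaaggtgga

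Of 228 aligned bases, 208 (91.2%) were identical between the Ctla2 sequences, and the longest identical run was 36 bases long and included the CRE letters. The AP-1 letters began 129 bases before the start of Ctla2a and 143 before that of Ctla2b, and the CRE letters 50 and 72 before. The motifs did not overlap each other in either sequence. Searched on both strands, TGACTCA was present in 4.46% and TGACGT in 6.47% of 32851 windows of the same length in the RefSeq table. Of the other motifs searched, the STAT letters TTCNNNGAA (7.02% of windows) were found before Ctla2a and not before Ctla2b, and CACGTG, an E-box (6.02%), and TGTTTAC, a forkhead motif (3.17%), before neither. The windows of Serpinb6a, Serpinb6b, Serpinb9 and Serpina3g held neither TGACTCA nor TGACGT, as was true of most windows. The STAT letters were also found before a start of Serpinb6a and before Serpina3g. These are matches of letters, not sites shown to be bound. The table held windows for 6 of the 7 genes, with none for Serpinb1a and a further start of Ctla2a that is not shown.

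Clade B serpin genes form a cluster on chromosome 13. Between Serpinb1a and Serpinb6a the RefSeq annotation lists 16 protein-coding genes, those at the ends included, all of them serpins, of which 10 were measured. Serpinb1a, whose call was known beforehand, was the only one of the 10 past the threshold, against 1.28% of all genes. Serpinb9g (2.78), Serpinb9d (4.82), Serpinb1b (4.90), Serpinb6c (4.99), Serpinb9b (5.23) and Serpinb9c (5.43) had mean levels below the median gene (6.34). This limits what their differences show. Within this stretch, the measured gene nearest to Serpinb1a was Serpinb6b, which differed by -0.09. Genes on the other side of Serpinb1a were not examined. Serpinb9b, a paralog of Serpinb9, read 4.84, 4.54, 4.62 and 5.08 in WT and 6.84, 5.60, 5.05, 5.04 and 5.43 in Tsc1-/-. Tsc1-/- replicate 1 stood well above the rest, and the groups overlapped through WT replicate 4 (difference 0.82, SE 0.30, adjusted p = 0.183, limma). Around the Ctla2 pair, the trophoblast gene Tpbpb, which lies between them, differed by 0.07 (adjusted p = 0.751) and Tpbpa by 0.24 (adjusted p = 0.331). On the other side of Ctla2b, 4930486L24Rik differed by -0.29 (adjusted p = 0.329) and Ctsll3 by 0.10 (adjusted p = 0.645, limma). The placental cathepsin genes nearby, Ctsj and Ctsq, differed by 0.03 and -0.09, neither past the threshold.

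**Figure D3:**
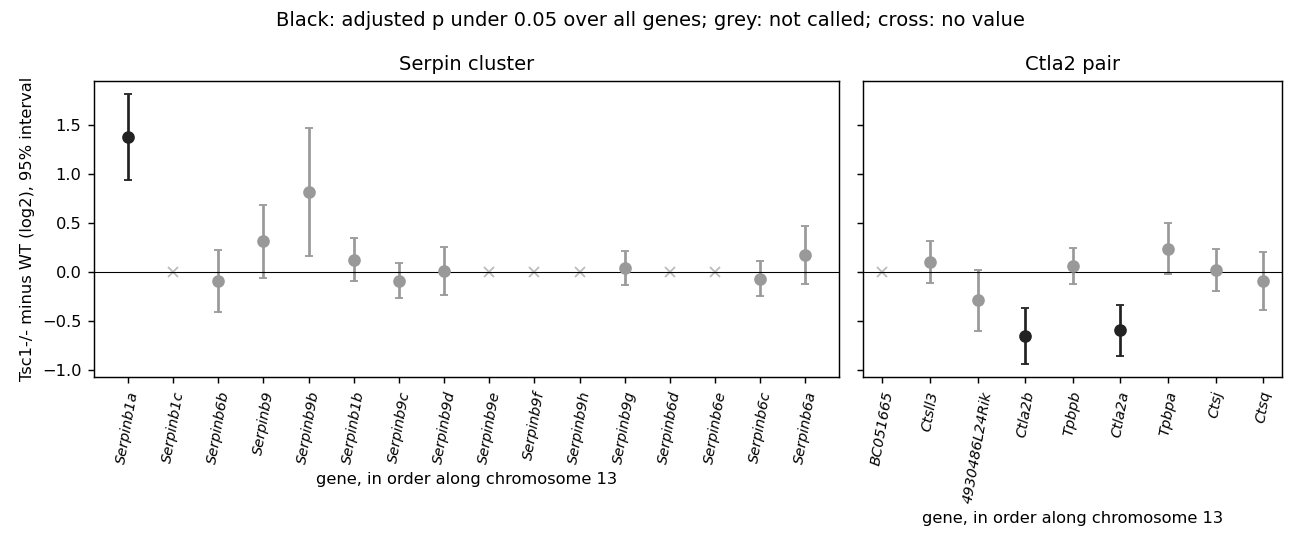
Difference Tsc1-/- minus WT on the log2 scale with its 95% interval (vertical axis) for protein-coding genes in the order of the RefSeq annotation (horizontal axis), from Serpinb1a to Serpinb6a and around the Ctla2 pair; black points passed an adjusted p under 0.05, grey points did not, and crosses on the zero line mark genes without a value. Serpinb1a (1.37), Ctla2b (-0.65) and Ctla2a (-0.59) are the black points.

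Among the other serpins, none passed by limma at an adjusted p under 0.05, with 4 of 13 clade B genes and 1 of 22 others at an unadjusted p under 0.05, against 2936 of 17097 genes in all. Of the 13 further clade B genes with a value, 7 were positive and 6 negative with a median of 0.01, at mean signals of 2.66 to 5.79. Besides Serpinb9b, those with the smallest p were Serpinb3a (0.39, adjusted p = 0.0864, limma), by a probe set that may cross-hybridise, and Serpinb12 (-0.40, adjusted p = 0.138, limma). Serpins of other clades, most of them secreted by liver and other tissues, had 9 of 22 genes positive and a median of -0.06. Serpini1, the neuroserpin gene (0.26, adjusted p = 0.259), Serpina9 (-0.15, adjusted p = 0.342) and Serpinf1 (-0.17, adjusted p = 0.347) had the smallest p.

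Of 15 other protease inhibitor genes, 1 rose and none fell, against 0.971% and 0.31% of all genes, with 7 positive and a median of -0.02. At an unadjusted p under 0.05 (limma) there were 6 of the 15, against 2936 of 17097 genes in all. Cstb, the gene of cystatin B, a cytosolic inhibitor of cysteine cathepsins, read 10.91, 10.98, 10.93 and 11.10 in WT and 11.26, 11.40, 11.46, 11.41 and 11.58 in Tsc1-/-. Every Tsc1-/- array was above every WT array, and the difference was 0.44 (SE 0.08, adjusted p = 0.0359, limma). Its direction was thus opposite to that of the Ctla2 genes, which belong to another family of cathepsin inhibitors. Slpi, a secreted inhibitor of neutrophil serine proteases, differed by -0.75 (adjusted p = 0.0834) and Spint1, a membrane inhibitor of serine proteases, by -0.23 (adjusted p = 0.215).

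Lists of granzymes with perforin, cysteine cathepsins with legumain, and neutrophil serine proteases were read from the same fit. They include known targets of these inhibitors, and other genes. Of the granzyme and perforin genes, 1 of 11 rose (Gzmb) and none fell, against 0.971% and 0.31% of all genes, with a median of 0.02. At an unadjusted p under 0.05 (limma) there were 4 of the 11, against 2936 of 17097 genes in all. Gzma differed by 0.32 (adjusted p = 0.0703) and Gzmc by 0.65 (adjusted p = 0.0812), both with every Tsc1-/- array above every WT array. Gzmc was dim (mean 4.59), with a gap of only 0.01 between its groups. No gene of the cysteine cathepsins and legumain passed (0 of 11 by limma at an adjusted p under 0.05, 3 at an unadjusted p under 0.05, against 2936 of 17097 genes in all), and 8 of the 11 were negative with a median of -0.07. Ctsz differed by -0.39 (adjusted p = 0.059) and Ctsc, whose product activates granzymes by removing their propeptide, by 0.40 (adjusted p = 0.0661). Ctss differed by -0.32 (adjusted p = 0.224). Ctsl, the gene of the cathepsin that Ctla2a inhibits, differed by -0.05 (95% interval -0.38 to 0.28), with means of 6.02 ± 0.32 (SD, n = 4) for WT and 5.97 ± 0.23 (SD, n = 5) for Tsc1-/-. Ctsb differed by -0.14 (95% interval -0.37 to 0.09). The neutrophil proteases that Serpinb1a inhibits had mean signals of 4.47 to 5.65 and differed by -0.36 (Elane), 0.15 (Prtn3) and 0.16 (Ctsg), none past the threshold (0 of 3 also at an unadjusted p under 0.05).

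**Figure D4:**
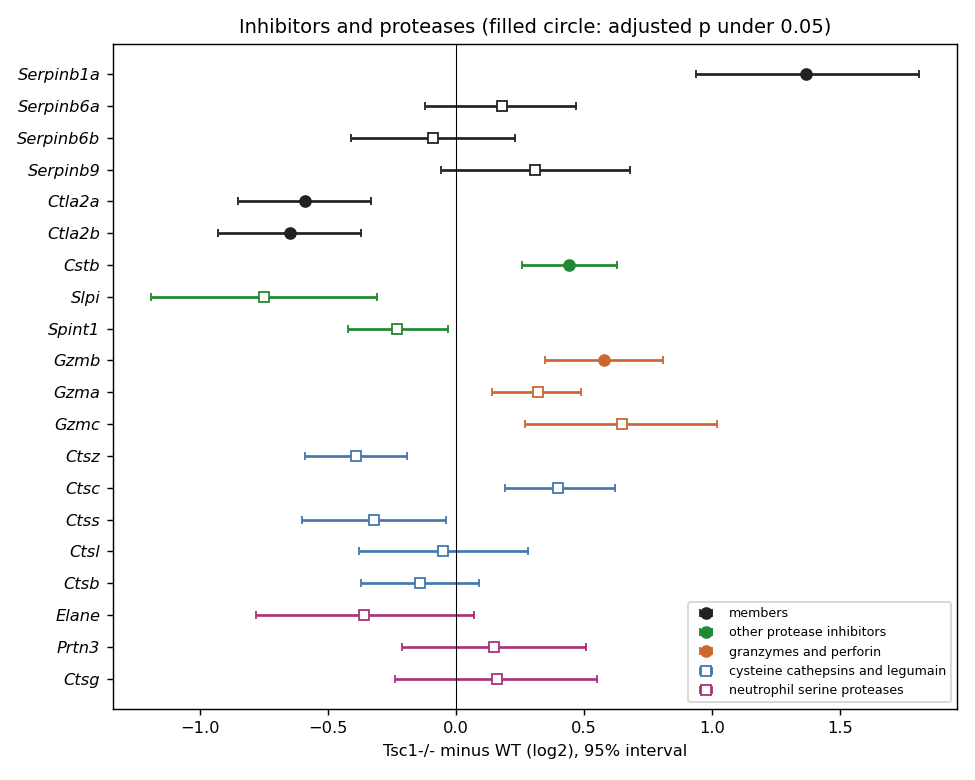
Difference Tsc1-/- minus WT on the log2 scale with its 95% interval (horizontal axis) for the measured members, other protease inhibitors and protease genes (vertical axis, colours by group); filled circles passed an adjusted p under 0.05 and open squares did not. Serpinb1a, Cstb and Gzmb are the filled circles above 0 and Ctla2a and Ctla2b those below 0. Beyond the members, the genes drawn are those called, those with the smallest p of their list and known targets. They therefore do not show the whole lists.

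Genes with the most similar pattern over the 9 arrays were found by the root mean square distance between values centred on each gene's mean, among 15431 named genes. For Ctla2a the nearest was Ctla2b, at 0.06 log2 units against a median of 0.38 for all genes, followed by Rnf144a and Gpr183 at 0.13 each. Ctla2b was nearest to Ctla2a (0.06), Rnf144a (0.14) and Kbtbd11 (0.17). Gpr183 encodes a receptor that positions lymphocytes by oxysterols, and Rnf144a an E3 ubiquitin ligase. For Serpinb1a the nearest were Kcnj8, a potassium channel gene, at 0.30, Gpx8, a peroxidase gene of the endoplasmic reticulum, at 0.31 and Lamp2, a lysosomal membrane gene, at 0.33, against a median of 0.77. Kcnj8 read 7.61 in Tsc1-/- replicate 1 and 8.80 to 9.26 in the other Tsc1-/- arrays, against 7.36 to 7.99 in WT, so that replicate 1 lay among the WT arrays for this gene.

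Markers of other spleen cells differed between arrays. None of the 11 macrophage and monocyte markers passed by limma, with 7 at an unadjusted p under 0.05, against 2936 of 17097 genes in all. Of the 11, 10 were negative, with a median difference of -0.50 and a range of -1.03 to 0.00. Their mean level was 6.12 to 6.94 in WT (6.12 in replicate 4) and 5.97 to 6.34 in Tsc1-/-. With that level as a covariate the differences were 1.65 for Serpinb1a (adjusted p = 0.249), -0.68 for Ctla2a (adjusted p = 0.293), -0.69 for Ctla2b (adjusted p = 0.315) and -0.03 for Serpinb9 (adjusted p = 0.979, limma). None of these passed. No B cell marker passed either (3 of 7 at an unadjusted p under 0.05), and 6 of 7 were negative, with a median difference of -0.47. Their mean level was 5.66 to 6.27 in WT and 5.33 to 5.86 in Tsc1-/-. Serpinb1a, Ctla2a and Ctla2b differed by 1.54, -0.69 and -0.71 with that level as a covariate (adjusted p = 0.252, 0.255 and 0.272).

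Neutrophils express Serpinb1a strongly, and RNA of neutrophil genes was present: S100a8 read 8.93 to 10.32 in WT and 6.65 to 10.68 in Tsc1-/-. None of the 8 neutrophil markers passed (1 at an unadjusted p under 0.05), 7 were negative, and their mean level was 6.71 to 7.45 in WT and 5.82 to 7.61 in Tsc1-/-. WT replicate 2 and Tsc1-/- replicate 2 had the highest neutrophil level and the highest Serpinb1a of their groups. Tsc1-/- replicate 5, with the lowest neutrophil level of all arrays (5.82), read 7.47 for Serpinb1a. With the neutrophil level as a covariate, an alternative chosen after seeing the data, Serpinb1a differed by 1.41 (SE 0.22, adjusted p = 0.0609), Ctla2a by -0.67 (adjusted p = 0.0619) and Ctla2b by -0.72 (adjusted p = 0.0633, limma). All 4 mast cell and basophil markers stayed short of the threshold, at mean signals of 3.88 to 5.27, with group ranges of their mean level that overlapped (4.47 to 4.62 and 4.49 to 4.62). Of the dendritic cell markers 0 of 5 passed (mean level 6.80 to 7.17 and 6.59 to 6.98), as did 0 of 5 natural killer cell markers (6.25 to 6.98 and 6.02 to 6.62). At an unadjusted p under 0.05 (limma) there were 2 and 4 of them, against 2936 of 17097 genes in all. A few bright genes weighed on these means: Itgax averaged 10.11 in the dendritic list. In the natural killer list Tyrobp averaged 8.73 and Fcer1g 8.34, against 4.02 for Ncr1. Of 5 erythroid and platelet markers (6.27 to 6.59 and 5.83 to 6.74) and 3 CD4 T cell markers (7.15 to 7.33 and 7.22 to 7.36), 0 passed. The part of these cells in the results was not tested beyond the covariate fits given.

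**Figure D5:**
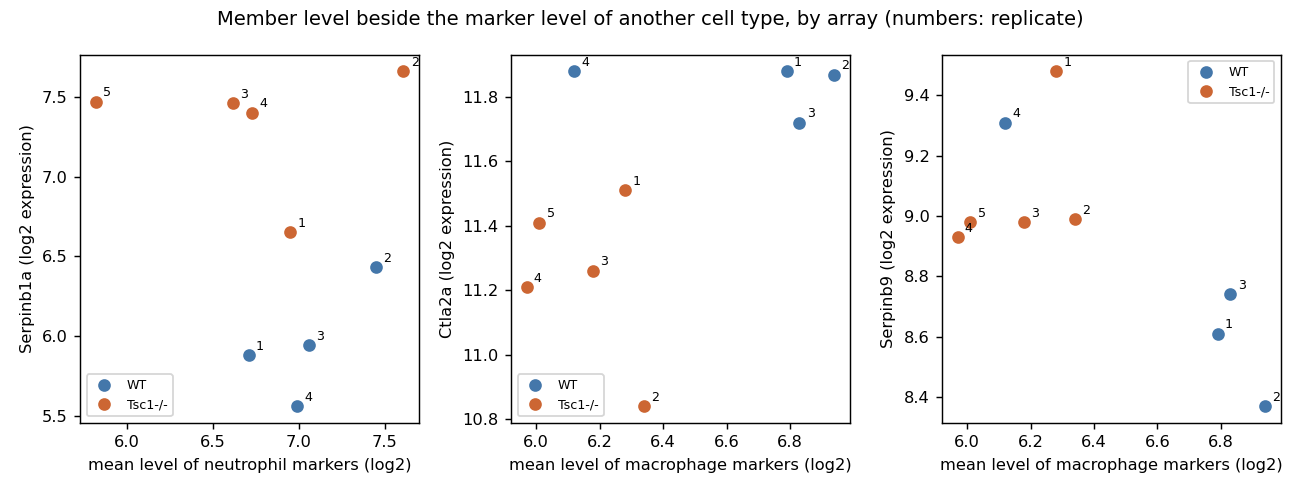
Log2 expression of Serpinb1a, Ctla2a and Serpinb9 (vertical axes) against the mean log2 level of neutrophil or macrophage markers (horizontal axes) on each array, WT in blue and Tsc1-/- in orange, with the replicate number beside each point. Serpinb1a is higher on every Tsc1-/- array than on every WT array, whereas Serpinb9 is higher in WT replicate 4 (9.31), the WT array with the lowest macrophage level (6.12), than in the other WT arrays.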

How the data were processed

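The authors deposited log2 values, 1 per probe set and array. The submitters' processing notes name RMA and Partek 6.5. Which settings of RMA were used is not given, and its usual quantile step would hide a change shared by most transcripts. Per the labels' protocols, 12 ng of RNA per sample was amplified with NuGEN kits. Of 45037 probe sets, 28898 had 1 gene in the platform annotation and 28689 matched the RefSeq table by Entrez identifier. Each gene was represented by its brightest probe set. Genotype was tested over all 17097 genes by limma 3.58.1 (lmFit, eBayes; R 4.3.3), two-sided, with Benjamini-Hochberg adjustment, and gene pairs with exact permutation. The code of the test was checked on simulated data, with noise drawn independently for each gene and array. Such data hold no effect shared by the genes of an array, so the check does not bear on the calls here. In total 20 alternatives were planned and 1 was added. Besides the members, the genes named were those of the lists past the threshold, or the 3 with the smallest p, and known targets. Members and lists were chosen with earlier results of these data known. Figures were drawn in Python 3.11.15.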

Additional observations from a re-analysis of the deposited data

Results flagged for a closer look

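A sample far from the others of its group was looked for in 36 genes and marker levels, each in both genotypes, and 6 of the 72 groups held one. By chance about 1 in 20 groups would. In Tsc1-/- replicate 1, Serpinb1a was low (6.65, with the others at 7.40 to 7.66), and Serpinb6b (10.68, others 10.08 to 10.21), Serpinb9 (9.48, others 8.93 to 8.99) and Gzmb (12.40, others 12.00 to 12.11) were high. Ctla2a was lower in WT replicate 3 (11.72) than in the other WT arrays (11.87 to 11.88), which lay very close together. Serpinb12 was low in Tsc1-/- replicate 5 (3.86, others 4.32 to 4.46), at a dim level.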

How the results depend on the processing

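Serpinb1a, Ctla2a and Ctla2b lost the threshold in 8, 13 and 12 of the 21 alternatives. They kept their direction in all of them. Where arrays were left out this was fixed in advance, because their groups did not overlap. Without one array each, Serpinb1a ranged from 1.24 to 1.54, Ctla2a from -0.66 to -0.49 and Ctla2b from -0.73 to -0.55, members called higher numbered 0 to 1 and lower 0 to 2, and genes called higher 1 to 297 and lower 1 to 159. Averaging all probe sets of a gene, Serpinb1a was 1.17 and 0 members were higher. With probe sets not joined, where more tests are adjusted for, Ctla2a was -0.59 and Ctla2b -0.65, with 0 members lower and 69 features higher. After quantile normalization Ctla2a was -0.64, 1 member was lower, and 43 genes were higher and 34 lower. Counts of higher genes were 338 after median centring, 543 with dim genes left out (151 lower), 509 with a variance trend and robust estimation (171 lower) and 340 with array weights (125 lower). Dim genes were those with both group means below the median gene (6.34). Serpinb1a stayed in only through its Tsc1-/- mean (7.33, against 5.95 in WT), so that alternative lends its call no support. Without WT replicate 4 and Tsc1-/- replicate 1 together, 145 were lower. With the replicate block, Serpinb1a was 1.34, Ctla2a -0.63 and Ctla2b -0.70, and by limma 0 genes passed in either direction, against 2354 with an unadjusted p under 0.05. It called 0 members, though 3 members had an unadjusted p under 0.05. Whether same-numbered samples belong together is not given. The correlations of their deviations from the group means ran from -0.098 to 0.093, which cannot settle whether they share a source or batch. With the macrophage level as a covariate, Serpinb1a was 1.65, Ctla2a -0.68, Ctla2b -0.69 and Serpinb9 reversed to -0.03, with 0 genes called in either direction (1677 at an unadjusted p under 0.05). With the B cell level the 3 called members were 1.54, -0.69 and -0.71, again with 0 genes called (1736 at an unadjusted p under 0.05). With the neutrophil level they were 1.41, -0.67 and -0.72, with 4 genes higher and 4 lower. In these 3 covariate fits 0 members were called, while 3 had an unadjusted p under 0.05. Serpinb6b ranged from -0.21 to 0.00 without one array each and reversed to 0.00 without WT replicate 4. The cause of these changes was not tested. Signal over background was not analysed here, which limits statements on dim serpins.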
